A study of Mus musculus with 6 samples.

Results

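The genes described here are 10 transcription factor and corepressor genes known from embryonic development or cell fate choice. They are Plag1, Dlx5, Dlx6, Osr2, Mkx, Foxp2, Runx1t1 (the corepressor), Tox, Bach2 and Nr4a3. They were looked up by Ensembl identifier, without its version, among the 53647 features of the deposited table, and all 10 had a row. They were chosen with the contrast between the groups already known, so their differences are given as a description and carry no test. The cells were D2.OR, a murine breast cancer line, transduced with lentivirus and selected with puromycin. The control group (Scram, n = 3) carried a non-targeting hairpin RNA and the other group (shSLX4IP, n = 3) carried a hairpin against SLX4IP, a partner of the nuclease scaffold SLX4. Both groups grew on a layer of Cultrex basement membrane extract for 7 days in medium with 10% serum and 5% Cultrex. A single hairpin stands for the depletion, and whether the selected cells were a clone or a pool is not given in the sources used here.

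Developmental transcription factors bind DNA through a small set of folds and switch programmes of genes on or off in particular lineages. Homeobox, odd-skipped and zinc finger factors such as Dlx5, Mkx, Osr2 and Plag1 act in bone, tendon, limb, palate and growth control. Foxp2, Tox, Bach2 and the corepressor Runx1t1 are best known from neural and blood lineages. Nr4a3 is an orphan nuclear receptor that many cell types induce quickly after a stimulus. Most differentiated epithelial cells keep many such genes silent, and tumour cells can express them outside their usual lineage.

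All values are normalised counts, each a read count scaled by the size factor of its library. Symbols of nuclear genes are read only in the starts of chromosomes 4, 6, 15 and 18 (4 segments on GRCm38, GENCODE M21, 569 protein-coding genes). Elsewhere in the nuclear genome, identifiers of genes that every cell uses, such as Actb and Eef1a1, were listed at 0 in all 6 libraries. The 10 members all lie inside these segments, 5 on chromosome 4, 3 on chromosome 6, 1 on chromosome 15 and 1 on chromosome 18. The targeted gene Slx4ip lies outside them and was listed at 0 in all 6 libraries, so it gave no check of the labels. The identifiers were matched without their versions, and with the version only 35, all mitochondrial, equal those of GENCODE M21. The annotation behind the counts is therefore not known, and the positions printed here are those of GENCODE M21 for the matched identifiers. Values of a group are always given in the order of its libraries A, B and C. Libraries held 5433573 to 6693111 recovered reads. Scram A stood apart from Scram B and C, with a sum of values of 8.95e+06 against 5.28e+06 to 5.97e+06 in the other libraries. The epithelial markers Krt8, Krt18, Epcam and Cdh1 lie outside the segments and cannot be read. Of the epithelial list, Esrp1 and Grhl2 lie inside and were low, with a summed value of 26.2 to 82.0 in Scram and 2.93 to 22.6 in shSLX4IP. In bulk RNA, fewer cells of a kind and less RNA per cell cannot be told apart.

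Of the 10 members, 5 had every shSLX4IP value above every Scram value (Plag1, Dlx5, Osr2, Bach2 and Mkx), 1 had every shSLX4IP value below (Nr4a3), and 4 were listed at 0 in all 6 libraries (Dlx6, Foxp2, Runx1t1 and Tox). Dlx5 was the only member listed at 0 in each library of 1 group alone. Among nuclear features of the segments with a mean of at least 10, the groups did not overlap in 67.5%, with 29.5% higher and 38.1% lower, and among all 8127 features tested they did not overlap in 53.5%, with 30.2% higher and 23.4% lower. The members were chosen on this contrast and nothing is read from their count against these shares.

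**Figure D1:**
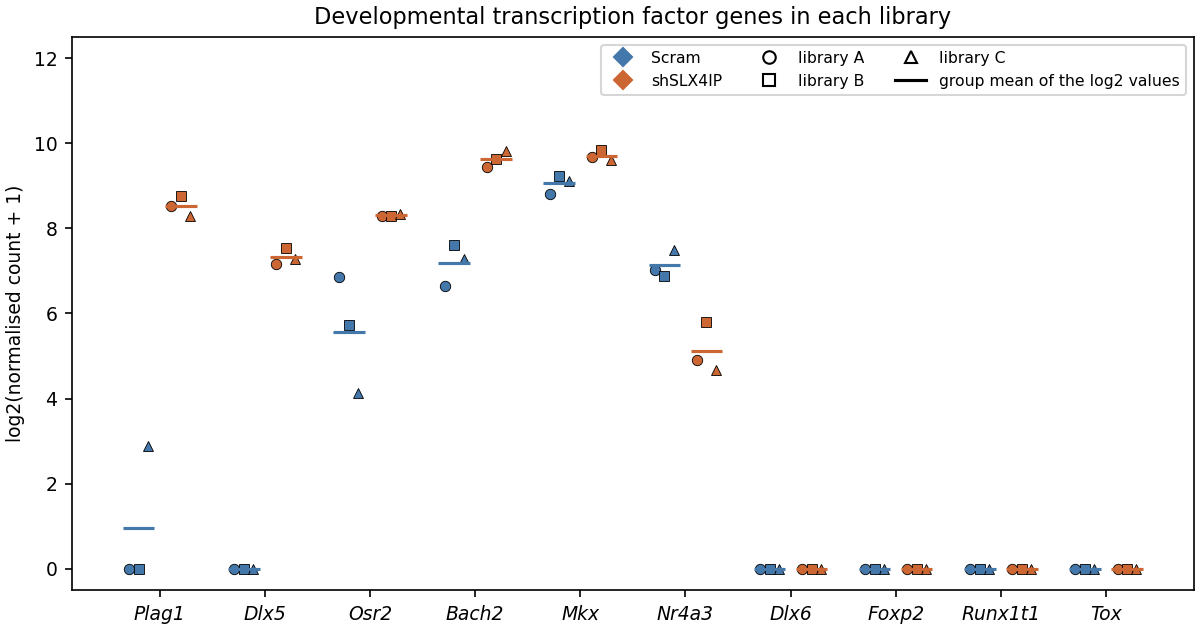
Log2(normalised count + 1) of the 10 members in each of the 6 libraries, with Scram in blue and shSLX4IP in orange, marker shapes for libraries A, B and C, and bars at the mean of the log2 values. The groups are apart in the 6 genes on the left, and the 4 on the right are at 0 in every library.

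Plag1 (ENSMUSG00000003282.10, chromosome 4, 3900996 to 3938423) encodes a zinc finger activator of growth genes that is rearranged in salivary gland adenomas. It was listed at 0 in Scram A and B and at 6.38 in Scram C, which is 7 recovered reads. The shSLX4IP values were 369, 435 and 310.5, from 390 to 446 reads. Plag1 was thus at or near 0 in the control group and well measured in each shSLX4IP library, with means of 2.13 ± 3.68 and 372 ± 62.5 (SD, n = 3). The log2 difference on the value + 1 scale was 7.57 (SE 0.87, moderated as in the limma fit), and 8.53 without Scram C, the library with the 7 reads. It was 5.83 with a pseudocount of 5, so the size of a difference from near 0 depends on that choice.

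Dlx5 (ENSMUSG00000029755.11, chromosome 6, 6877805 to 6882085) encodes a distal-less homeodomain factor of bone and craniofacial development. Every Scram library listed Dlx5 at 0, and the shSLX4IP values were 141, 184 and 155 (160.0 ± 21.5, n = 3, from 156 to 195 reads). No fold is given against a group listed at 0. Its homeobox partner Dlx6 (ENSMUSG00000029754.14, chromosome 6, 6863334 to 6868568), which lies 9.24 kb away and is often active with it, was listed at 0 in all 6 libraries. The antisense RNA gene Dlx6os1, whose body spans Dlx6 on the other strand, and Dlx6os2, whose exons share 104 bases with Dlx6 on the other strand, were also listed at 0 in all 6. As listed, the pair differed within shSLX4IP, where Dlx5 had reads in 3 of 3 libraries and Dlx6 was at 0.

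A listed 0 has a limit of its own. Among the 569 protein-coding genes of the segments, 193 to 213 were listed at 0 in a library, but only 5 to 8 had 1 to 3 recovered reads. Values under a few reads are thus rarer in the file than zeros, and a 0 is reported here as listed, with no upper limit attached. Across all 6 libraries 148 of the 569 genes were listed at 0.

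Osr2 (ENSMUSG00000022330.6, chromosome 15, 35296098 to 35303305) encodes an odd-skipped zinc finger factor of palate, tooth and joint development. Its Scram values were 114, 52.3 and 16.4, from 78, 56 and 18 reads, and its shSLX4IP values 313, 312 and 323. The Scram values were scattered and the shSLX4IP values nearly equal, with coefficients of variation of 81.1% and 1.89%, and the groups did not overlap. The means were 61.0 ± 49.5 and 316 ± 5.97, a 5.19-fold difference (log2 difference 2.74, SE 0.69). The Scram libraries decided its size, since the log2 difference was 3.38 without Scram A and 2.02 without Scram C.

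Mkx (ENSMUSG00000061013.7, chromosome 18, 6934518 to 7004780), or Mohawk, encodes a homeodomain factor of the tendon lineage. Mkx was the highest of the members in both groups by value per kb of exon. Scram gave 447, 603 and 553 and shSLX4IP gave 812, 909 and 783. The means were 534 ± 80.1 and 835 ± 65.8, a 1.56-fold difference with the lowest shSLX4IP library above the highest Scram library (log2 difference 0.65, SE 0.18). It was the smallest difference of the 6 members that were above 0, and it ranged from 0.53 without Scram A to 0.80 once the dependence on exonic length was taken out. Its exons share 201 bases with AC148004.2 on the same strand, a gene listed at no more than 7.17 in any library.

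Bach2 (ENSMUSG00000040270.17, chromosome 4, 32238804 to 32586108) encodes a BTB and basic leucine zipper repressor that guides B and T cell fate. Its Scram values were 99.6, 194 and 155 and its shSLX4IP values 690.3, 793 and 906. Each shSLX4IP library was above each Scram library, with means of 149.6 ± 47.6 and 796 ± 108, a 5.32-fold difference (log2 difference 2.45, SE 0.30). Markers of lymphoid cells are given beside it, and their part in the result was not tested. Of 6 lymphoid genes inside the segments, Ccl19, Ccl21a and Il7r were listed at 0 in all 6 libraries and Ccl27a was at no more than 6.37. The B cell gene Cd72 was at 40.9 ± 16.5 in Scram and 13.6 ± 9.75 in shSLX4IP (n = 3 each, limma adjusted p = 0.112). Exons of Cd72 share 1423 bases with Tesk1 on the other strand. Tesk1 was at a mean value per kb of exon of 702 in Scram and 309 in shSLX4IP. How much of the Cd72 value comes from Tesk1 was not tested. Il11ra1, which is not confined to lymphoid cells, made up most of the summed value of the list, 607 to 1734 in Scram and 651 to 780.0 in shSLX4IP. Pax5, the factor that commits cells to the B lineage, was at 29.1 ± 4.72 and 8.63 ± 7.44 (n = 3 each, limma adjusted p = 0.0834). Exons of Bach2 share 537 bases with Bach2os on the other strand, a gene listed at no more than 8.41.

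Nr4a3 (ENSMUSG00000028341.10, chromosome 4, 48045153 to 48086447), an orphan nuclear receptor gene of the immediate early class, was the only member lower in shSLX4IP. Scram gave 129, 118 and 179 and shSLX4IP gave 29.0, 54.7 and 24.7. The means were 142 ± 32.4 and 36.1 ± 16.2, so that Scram was 3.92-fold higher, and the groups did not overlap (log2 difference -2.00, SE 0.41). The shSLX4IP values rest on 31 to 56 reads, and their coefficient of variation, 44.9%, was the highest of the members in that group. The difference was between -2.55 after quantile normalization and -1.78 without shSLX4IP C.

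RefSeq start sites were at hand for only 2 of the 10 members, Nr4a3 and Bach2, so only the sequence before those sites is shown. Whether these sequences bear on the differences between the groups was not tested. For Nr4a3 the stretch runs up to the first base of the GENCODE gene (chr4:48045055-48045152, GRCm38.p6, plus strand). For Bach2 it lies inside the GENCODE gene, which begins at 32238804. There it comes before the RefSeq start, an exon that opens 1 GENCODE transcript and is internal in longer ones (chr4:32417185-32417434, GRCm38.p6, plus strand). Capitals mark TGACG on either strand, the core letters of a cAMP response element, which CREB family factors bind.
Nr4a3 upstream: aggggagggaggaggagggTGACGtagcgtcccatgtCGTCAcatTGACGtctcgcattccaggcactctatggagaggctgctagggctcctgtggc
Bach2 upstream: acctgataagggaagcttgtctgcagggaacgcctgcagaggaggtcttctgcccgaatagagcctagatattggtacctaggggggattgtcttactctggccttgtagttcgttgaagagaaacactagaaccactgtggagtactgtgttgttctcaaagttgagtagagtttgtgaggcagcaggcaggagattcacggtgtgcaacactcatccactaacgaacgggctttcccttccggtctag
The Nr4a3 stretch of 98 bases held TGACG on either strand 3 times, and 5.22% of the first 98 bases of all 32851 RefSeq promoter windows held it at least 1 time. The RefSeq start of Nr4a3 is at 48045305, inside the GENCODE gene. The window bases compared lie at the same distance before each RefSeq start, so they are not the bases next to a start. The Bach2 stretch of 250 bases held none, and 17.8% of windows of that length held it. The letters TGANTCA, the core of AP-1 sites and of the longer sites that Bach factors bind, share their first 3 letters with TGACG. They were in neither stretch and in 2.43% of windows of 98 bases and 6.75% of windows of 250 bases. These are matches of letters, not measured binding sites.

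Foxp2 (chromosome 6, 14901349 to 15441977), a forkhead factor of brain and lung development, was listed at 0 in all 6 libraries. So were Runx1t1 (chromosome 4, 13743436 to 13893649), a corepressor of the ETO family, and Tox (chromosome 4, 6686353 to 6991557), an HMG-box factor of T cell development. The gene bodies of these 3 span 150.2 to 541 kb, and that of Bach2 spans 347 kb. Exons of Tox share 260 bases with Gm11802 on the other strand, which was also listed at 0 in all 6 libraries.

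Per kb of exon, the members were low to middling among the genes of the segments. In Scram the order of mean value per kb was Mkx at 131 ± 19.6, Nr4a3 at 23.7 ± 5.42, Osr2 at 16.8 ± 13.7, Bach2 at 15.1 ± 4.79 and Plag1 at 0.251 ± 0.434 (SD, n = 3), with the other 5 listed at 0. The range of Osr2 overlapped those of Nr4a3 and Bach2, which were barely apart from each other (lowest Nr4a3 library 19.7, highest Bach2 library 19.5), while Mkx lay above them and Plag1 below. In shSLX4IP the order was Mkx at 204 ± 16.1, Osr2 at 87.3 ± 1.65, Bach2 at 80.1 ± 10.9, Dlx5 at 70.7 ± 9.51, Plag1 at 43.8 ± 7.37 and Nr4a3 at 6.03 ± 2.71. There the ranges of Osr2 and Bach2 overlapped, as did those of Bach2 and Dlx5, and Mkx, Plag1 and Nr4a3 stood clear of their neighbours in the order. Mkx was above 55.4% of the 569 genes in Scram and 62.7% in shSLX4IP, and Osr2 went from above 43.8% to above 50.3%. Nr4a3 moved from 45.0% to 41.3%.

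**Figure D2:**
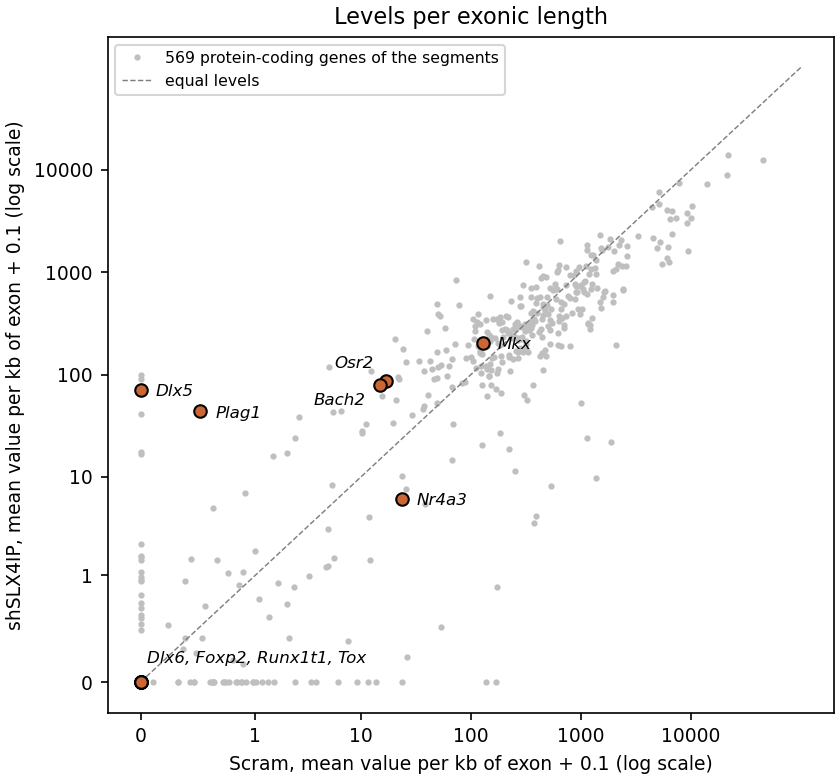
Mean value per kb of exon in Scram (x) and shSLX4IP (y), each plus 0.1 on a log scale, for the 569 protein-coding genes of the segments (grey) and the 10 members (orange), with a dashed line at equal levels. Plag1, Dlx5, Osr2, Bach2 and Mkx lie above the line and Nr4a3 lies below it.

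Other transcription factor genes of the same segments are given for comparison, from a list drawn up with some of its values known and without the members. Of 22 such genes listed, 21 had a row and a place in the segments, and Zfp483 is not analysed here. In all 6 libraries 6 were listed at 0: Foxe1, Pou3f2, Prdm13, Tal2, Pax4 and Tfec, which act in thyroid, neural, blood, islet and macrophage or pigment lineages. The other 15 were tested, with 5 higher, 2 lower and 8 not past the threshold of the limma test, adjusted over all 8127 features. That is 46.7% called, against 41.1% of the 431 nuclear features of the segments and 23% of all features. Higher calls made up 18.3% and lower calls 22.7% of those segment features, against 11.7% and 11.3% of all features. The median log2 fold change of the 15 was 0.39, beside 0.25 over all features tested and -0.15 over the nuclear features of the segments. The share called is near that of the segments, and is no result about transcription factors.

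Klf4, a Krüppel-like factor of epithelial differentiation and pluripotency, had the largest change of the 15. It fell from 2905, 3157 and 3051 to 175, 147 and 158, with a log2 fold change of -4.24 (SE 0.15, limma adjusted p = 0.000203). Zfp462, a zinc finger gene of neurodevelopment, rose almost as far in the other direction, from 151, 288 and 224 to 2448, 2210 and 2497 (log2 fold change 3.47, SE 0.27, limma adjusted p = 0.000914). The interferon regulatory factor gene Irf5 rose from 173 ± 21.9 to 502 ± 25.5 (log2 fold change 1.54, limma adjusted p = 0.00431), with exons that share 411 bases with Tnpo3 on the other strand. These 3 calls held in each of the 17 other settings.

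The other 4 calls were less firm. Zfp292 rose from 1380 ± 471 to 3384 ± 135 (log2 fold change 1.36, limma adjusted p = 0.0244), and Zfp189 from 283 ± 57.2 to 593 ± 50.7 (1.08, limma adjusted p = 0.0220). Klf10, a Krüppel-like gene induced by TGF-beta, rose from 1466 ± 255 to 2971 ± 82.3 (1.03, limma adjusted p = 0.0112). Creb3, a membrane-bound leucine zipper factor of the secretory pathway, fell from 3634 ± 1982 to 1055 ± 80.1 (log2 fold change -1.66, limma adjusted p = 0.0286), and its exons share 360 bases with Tln1 and 133 with Gba2 on the other strand. All 4 calls were lost without any 1 of the shSLX4IP libraries, at limma adjusted p of 0.0534 to 0.112, and those of Zfp292 and Creb3 also without Scram C (0.0624 and 0.0556). The Scram values of Creb3 were 5920, 2408 and 2574, and its log2 fold change was -1.24 without Scram A.

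Among the 8 that did not pass, Zeb1, which represses E-cadherin, had Scram values of 349, 961 and 760.2 and shSLX4IP values of 1442, 1484 and 1423 (limma adjusted p = 0.0798). It passed without Scram A (log2 fold change 0.76 against 1.19, limma adjusted p = 0.00714) and without Scram B (0.0487), and also after quantile normalization (0.0403), with DESeq2 (0.0154) and with the length trend removed (0.0228). Pax5 passed without shSLX4IP A (limma adjusted p = 0.0439), after quantile normalization (0.0223), with DESeq2 (0.0312) and with the length trend removed (0.0185). Zfp800 passed without Scram B (0.0456) and Nfx1 without Scram A (0.0489, log2 fold change 0.22) and after quantile normalization (0.0274). Nrf1 had a limma adjusted p of 0.178, and 0.0488 with the length trend removed. Grhl2, Zbtb5 and Zfp438 had limma adjusted p of 0.177, 0.628 and 0.285 and passed in no other setting run.

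**Figure D3:**
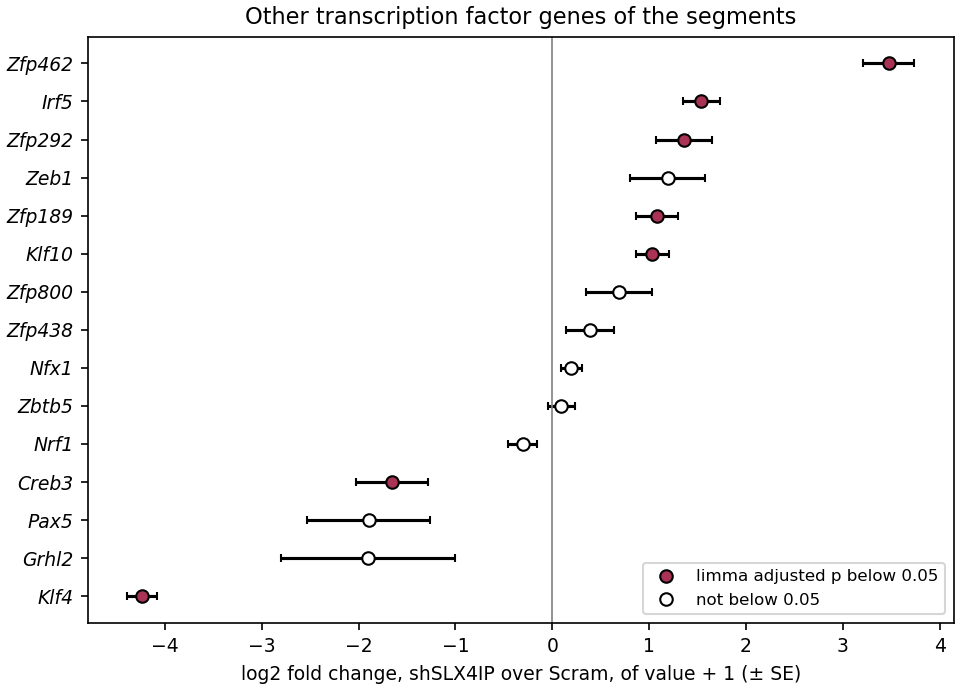
Log2 fold change of value + 1, shSLX4IP over Scram, with its SE, for the 15 tested transcription factor genes of the segments that are not members; filled points have a limma adjusted p below 0.05. Zfp462, Irf5, Zfp292, Zfp189 and Klf10 are filled on the right, and Creb3 and Klf4 on the left.

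Genes beside the members were read for comparison. The nearest protein-coding gene on each side gave 18 genes, of which 4 were listed at 0 in all libraries, 2 stayed below the filter and 12 were tested. Of these 12, 3 were higher, 2 lower and 7 did not pass the limma test, and the median log2 fold change was 0.13. The share called, 41.7%, is near the 41.1% of the segments.

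Plag1 has the closest neighbour. Chchd7, a mitochondrial protein gene on the other strand, begins 0.465 kb from the start of Plag1, with Scram values of 2516, 674 and 821 and shSLX4IP values of 614, 696 and 729 (n = 3 each, limma adjusted p = 0.335). The values of Chchd7 overlapped between the groups and were highest in Scram A. On the other side Mos, the germ cell kinase gene, was listed at 0 in all 6 libraries. Beside Dlx5 and Dlx6, Sem1 had a limma adjusted p of 0.255 and Sdhaf3 was at 236 ± 88.2 and 458 ± 74.6 (limma adjusted p = 0.0711, and 0.00466 without Scram A). Sdhaf3 also passed with DESeq2 (0.0149) and with the length trend removed (limma adjusted p = 0.0178). Stk3 and Vps13b, on either side of Osr2, had limma adjusted p of 0.0988 and 0.581. Stk3 passed without Scram A (limma adjusted p = 0.0140), after quantile normalization (0.0196) and with DESeq2 (0.00792).

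Beside Mkx, the small GTPase gene Rab18 was lower, from 6172 ± 329 to 4445 ± 194 (log2 fold change -0.47, limma adjusted p = 0.0336), the opposite direction to Mkx. Rab18 no longer passed under 10 of 17 other settings, which include leaving out any 1 library but Scram A, and its log2 fold change was 0.02 after quantile normalization. Armc4 on the other side was listed at 0. The kinase gene Map3k7 beside Bach2 was at 4257 ± 927 and 2793 ± 75.8 (limma adjusted p = 0.0831). Map3k7 passed without Scram A (limma adjusted p = 0.00132), with DESeq2 (0.00673) and with the length trend removed (0.00654). Gja10, 10.9 kb from Bach2, was listed at 0 in all 6 libraries.

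On either side of Nr4a3 the neighbours moved in opposite directions. Stx17, a syntaxin of autophagosomes 38.5 kb away, rose from 1087 ± 215 to 2159 ± 93.0 (log2 fold change 1.01, limma adjusted p = 0.0141). Sec61b, a subunit of the ER translocon 562 kb away, fell from Scram values of 21027, 6629 and 8237 to between 1979 and 2181 (log2 fold change -2.34, limma adjusted p = 0.0169; -1.84 without Scram A). Both calls were lost without any 1 shSLX4IP library (limma adjusted p of 0.0616 to 0.0768), and that of Stx17 also without Scram C (0.0532).

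The genes around Foxp2, Runx1t1 and Tox were not all listed at 0 as these 3 were. Mdfic, beside Foxp2 and itself a modulator of transcription factors, rose from 893 ± 119 to 2340.4 ± 179 (log2 fold change 1.39, limma adjusted p = 0.00354), while Ppp1r3a on the other side was listed at 0. Beside Tox, Nsmaf was at 2145 ± 104 and 2352 ± 53.7 (limma adjusted p = 0.425). Car8, 1152 kb away, rose from a listed 0 in all Scram libraries to 68.8, 77.1 and 47.8 (limma adjusted p = 0.00103). Triqk and Slc26a7, the nearest to Runx1t1, were listed at 0 in Scram and at no more than 16.6 and 3.62 in shSLX4IP.

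**Figure D4:**
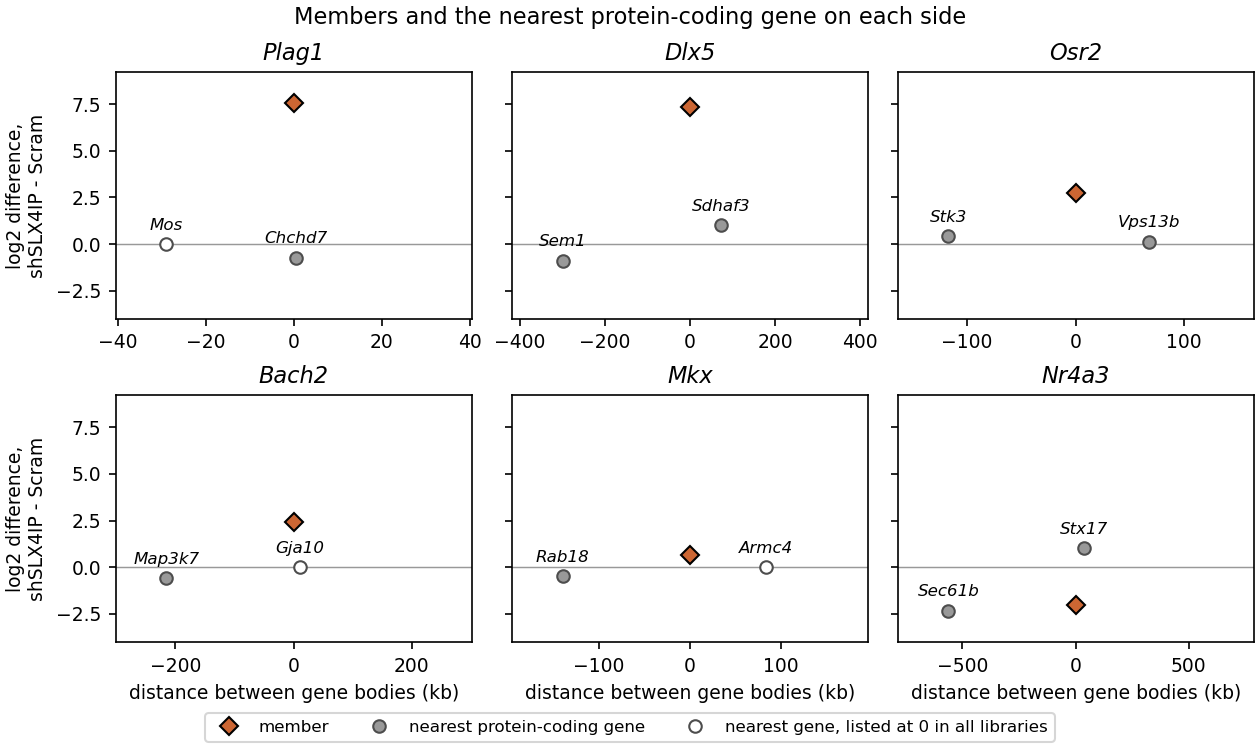
Log2 difference of value + 1, shSLX4IP minus Scram, of the 6 members with values above 0 (diamonds) and of the nearest protein-coding gene on each side (circles, open where listed at 0 in all libraries), against the distance between gene bodies in kb. Chchd7 lies 0.465 kb from Plag1 with a difference of -0.72 beside 7.57 for Plag1.

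For 5 of the members above 0, the gene of the segments whose log2 values ran most alike over the 6 libraries was looked up among 348 tested protein-coding genes. These were Cped1 for Dlx5 (Pearson r = 1.000), Susd1 for Osr2 (0.991), C9orf72 for Mkx (0.991), Rrm2b for Bach2 (0.998) and Retreg1 for Nr4a3 (0.966). With 2 groups of 3, such values mostly restate the difference between the groups, and 48 genes for Dlx5, 34 for Mkx and 51 for Bach2 exceeded 0.95. Only 2 did so for Osr2 and 5 for Nr4a3. Cped1, like Dlx5, was at a listed 0 throughout Scram, and its shSLX4IP values were 569.8, 631 and 644.

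**Figure D5:**
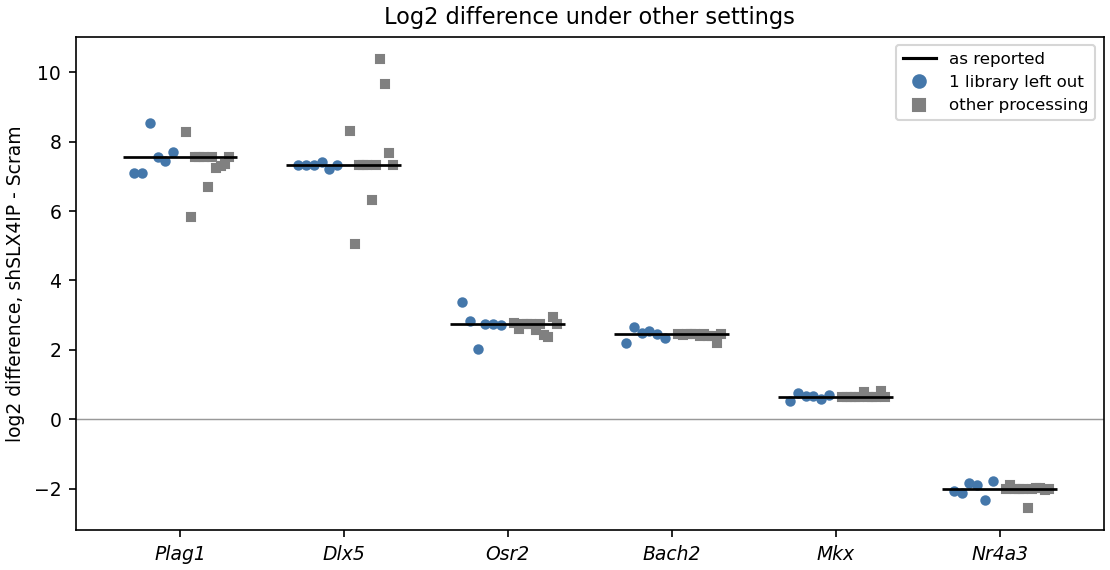
Log2 difference, shSLX4IP minus Scram, of the 6 members with values above 0: as reported (black bars), with 1 library left out (blue) and under other processing (grey). Each member keeps its sign in all 17 other settings. Leaving out 1 library or changing the pseudocount, filter, trend or block could not turn it, since the groups do not overlap. The spread is widest in Dlx5, from 5.04 to 10.4, where the Scram values are 0.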

How the data were processed

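RNA was sequenced from 3 Scram and 3 shSLX4IP samples, with poly(A) libraries from a stranded kit, per the labels' protocols. Per the submitters' processing notes, fastp 0.19.5, STAR 2.7.7, StringTie 2.1.7, DESeq2 1.22.1 and GRCm38 were used (role of each, annotation release, filters and strand setting: not given in the sources used here). Each deposited value is a normalised signal: a gene count that the authors scaled by 1 size factor per library. Low values are whole multiples of 1 step per column, and 99.97% to 100% of values above 0 came out whole (within 0.1). Columns carry letters, which are not tied to the labels' replicate numbers. Libraries of a group differed by more than counting noise (chi-square per degree of freedom 20.7 to 187), and p-values measure the spread between these samples, part of which may be technical.

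Of 53647 identifiers 52093 matched GENCODE M21 without the version, and 35, all mitochondrial, with it, so the release behind the counts is not known. Along each chromosome a protein-coding gene with a mean of at least 1000 scored 3 and any other -1, and segments scoring at least 30 were kept. The test was limma 3.58.1 under R 4.3.3, with the trend option, applied to log2(value + 1) of features with a mean of at least 10, 2-sided, Benjamini-Hochberg over all 8127, threshold 0.05. Fold changes on that scale understate the change of low genes. Each SE of a log2 difference, for members as well, is limma's moderated SE, which borrows from the spread of all features tested. The fit was also run on simulated counts with a spread common to all features and libraries. The libraries here differed unevenly, so nothing is read from that run. Count tests on recovered reads used edgeR 4.0.16 and DESeq2 1.42.0 as alternatives; edgeR called 712 features higher and 854 lower. Exonic length is the union of annotated exons. Named genes were the members, the called transcription factors of the list, the nearest protein-coding neighbours, overlapping genes, up to 4 genes of each other list and the most alike gene per member (that of Plag1 is not reported here); other genes are named after their values were seen. The members and lists were chosen with earlier results of these data known.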

Additional observations from a re-analysis of the deposited data

How the results depend on the processing

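The columns carry letters that are not tied to the replicate numbers of the labels. Same-lettered libraries of both groups did not deviate together (correlations of -0.0213, -0.00929 and -0.000725 over 8127 features), so the letters are not taken as a pairing. A fit with the letter as a replicate block, chosen after seeing the data, called 365 features higher and 309 lower, 2 and 1 of the other transcription factor genes and 2 and 0 of the neighbouring genes. Over all features 952 were higher and 920 lower; DESeq2 called 1602 and 1624, and with the length trend removed, which tests only 431 features of the segments, 131 and 142 were called. Leaving out 1 library gave 433 (without shSLX4IP C) to 1895 (without Scram A) higher and 410.0 (without shSLX4IP B) to 1573 (without Scram A) lower; without Scram C 489 were lower. The other transcription factor genes had 2 to 7 higher and 1 to 2 lower when 1 library was left out, with 2 higher without any 1 shSLX4IP library, and 4 lower with the length trend removed. Among the neighbouring genes 2 to 5 were higher and 0 to 3 lower without 1 library, with 5 higher without Scram A and 0 lower without any 1 shSLX4IP library; 5 were higher with DESeq2, and 1 was lower with no filter, quantile normalization, limma without the trend and edgeR. The cause of these shifts was not tested. Quantile normalization moved the median log2 fold change from 0.25 to -0.0028 over all features and from -0.15 to 0.10 in the segments, and turned Nrf1 (0.16) and Rab18 (0.0226). Removing the length trend turned Nfx1 (-0.0254), Nsmaf (-0.0805) and Vps13b (-0.36). None of these 5 values passed the threshold. Of 456 single-gene tests under other settings 37 lost and 22 gained a call. The 6 members above 0 kept their direction, with no overlap between the groups, in each setting run. With groups apart, this was fixed in advance where a library was left out or the pseudocount, filter, trend or block was changed. Only rescaling (TMM factors, quantile normalization, edgeR, DESeq2, the removed length trend) could have altered it. Of the 102 differences of these members, 8 moved by more than the spread between replicates. The filters, limma without the trend and the block leave the differences unchanged by construction, so the 8 are not read as a rate. Few reads lie behind Plag1 in Scram (0 to 7), Osr2 in Scram (18 to 78) and Nr4a3 in shSLX4IP (31 to 56). Dlx5 had none in Scram, and libraries of a group also differed beyond counting error.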

Other observations

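Other gene groups of the segments were read from short lists by tissue, which do not cover all genes of a kind. Of the 431 nuclear features tested in the segments limma called 41.1%, with 18.3% higher and 22.7% lower, and of all 8127 features it called 23%; with 2 to 5 genes tested in a list, nothing is read from a list's share. Of 5 transcription cofactor genes inside the segments, Mdfic rose (log2 fold change 1.39, limma adjusted p = 0.00354) and the other 4 did not pass, among them Wac and Epc1 (limma adjusted p of 0.553 and 0.196). Of 10 listed skeletal and matrix genes inside the segments 5 were listed at 0 in all libraries, and 4 were tested, with 3 lower and 0 higher. These were Col1a2, from 23243 ± 2627 to 271 ± 31.4, Matn2, from 1088 ± 44.5 to 4.73 ± 4.42, and Fzd8, which was listed at 0 in each shSLX4IP library (limma adjusted p = 7.64e-05, 0.00286 and 0.000464); Sem1 did not pass (0.255). The list's summed value was 30238 to 38997 in Scram, most of it Col1a2 and Sem1. In shSLX4IP it was 4203 to 4444, nearly all of it Sem1 (4166, 4103 and 3955), so the sum is not read as a level of matrix genes.

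Neural genes went both ways. Of 9 inside the segments, 2 were listed at 0 in all libraries, 4 stayed below the filter, and 3 were tested. Cntfr rose from a listed 0 throughout Scram to 251 ± 16.2 (n = 3, limma adjusted p = 0.000336), while Ncald fell from 458 ± 69.1 to 2.12 ± 3.68 (limma adjusted p = 0.00296) and Basp1 was listed at 0 in each shSLX4IP library (limma adjusted p = 0.000508). The summed value of the list was 553 to 925 in Scram and 247 to 282 in shSLX4IP. Lymphoid genes had 2 tested members inside the segments and 0 called by limma, at adjusted p of 0.112 and 0.576.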
